A study of Mus musculus with 12 samples.

Results

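Triglyceride synthesis enzymes are described here as 9 genes picked by symbol from the gene count table: Gpam, Agpat2, Agpat3, Lpin1, Lpin2, Lpin3, Mogat1, Dgat1 and Dgat2. All 9 were found among 41708 genes, and all 9 were among the 12615 genes with enough counts to be tested. Liver RNA was sequenced from 7 mice labelled Ube4a LKO and 5 mice labelled Ube4a flox/flox, to ask how hepatocyte loss of Ube4a, a ubiquitin chain elongation factor, changes expression in the fasted liver. Both groups carried the floxed Ube4a alleles in a C57BL6/J background and were fasted for 16 h. The LKO mice carried in addition Albumin-Cre, which drives recombination in hepatocytes, so other liver cells keep the gene. Age is not given in the sources used here, and a Cre group without the floxed alleles is not analysed here. Libraries held 13638048 to 15620308 counts in LKO livers and 13399874 to 16525053 counts in flox livers.

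Liver triglyceride is built on glycerol 3-phosphate in the endoplasmic reticulum and on the mitochondrial surface. Glycerol 3-phosphate acyltransferases such as Gpam add the first fatty acid, and acylglycerol phosphate acyltransferases (Agpat2, Agpat3) add the next to give phosphatidic acid. Lipins (Lpin1, Lpin2, Lpin3) remove the phosphate to give diacylglycerol, and the diacylglycerol acyltransferases Dgat1 and Dgat2 add the last fatty acid. Mogat1 makes diacylglycerol from monoacylglycerol by a separate route. In the fasted liver the pathway re-esterifies fatty acids that arrive from adipose tissue, and Lpin1 is known as a fasting-induced gene that also acts in the nucleus with PGC-1α.

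The sequences shown are those before the annotated start sites of the lipins Lpin1 and Lpin2 and of Agpat2 and Agpat3, since Lpin1 carries a wide spread between livers and the Agpat pair the smallest p-values below. They are the 250 bases before the RefSeq start site in GRCm38.p6, written 5′ to 3′ on the strand of the gene. RefSeq windows were at hand for 7 of the 9 genes, and other start sites of the same genes are not shown. Lpin1 lies at chr12:16610967-16611216 on the minus strand, the first of the Lpin2 windows at chr17:71183282-71183531 on the plus strand, Agpat2 at chr2:26604418-26604667 and Agpat3 at chr10:78351701-78351950, both on the minus strand. Capitals mark matches on either strand to any of 6 motifs, chosen after the windows had been seen.
Lpin1: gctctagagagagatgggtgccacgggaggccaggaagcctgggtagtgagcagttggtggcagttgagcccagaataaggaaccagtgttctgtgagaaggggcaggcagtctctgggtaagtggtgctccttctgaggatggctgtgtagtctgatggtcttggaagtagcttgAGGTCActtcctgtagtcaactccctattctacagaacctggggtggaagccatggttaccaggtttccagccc
Lpin2: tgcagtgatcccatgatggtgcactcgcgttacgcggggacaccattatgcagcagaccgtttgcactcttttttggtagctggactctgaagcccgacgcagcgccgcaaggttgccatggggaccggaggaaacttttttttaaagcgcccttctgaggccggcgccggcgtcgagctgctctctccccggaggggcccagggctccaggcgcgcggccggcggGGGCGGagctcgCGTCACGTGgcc
Agpat2: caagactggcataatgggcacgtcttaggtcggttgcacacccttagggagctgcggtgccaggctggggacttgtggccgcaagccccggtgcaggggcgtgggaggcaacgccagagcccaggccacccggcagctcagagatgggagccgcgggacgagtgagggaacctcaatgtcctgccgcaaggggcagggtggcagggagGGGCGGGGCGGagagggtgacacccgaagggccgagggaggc
Agpat3: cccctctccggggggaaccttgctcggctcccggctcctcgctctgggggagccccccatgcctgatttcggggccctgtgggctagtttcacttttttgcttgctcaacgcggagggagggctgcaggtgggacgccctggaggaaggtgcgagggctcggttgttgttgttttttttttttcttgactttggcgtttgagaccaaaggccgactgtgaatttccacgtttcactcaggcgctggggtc
The Lpin1 window held 1 nuclear receptor motif (AGGTCA, starting 74 bases before the start site), a match found in 14% of 32851 RefSeq windows of this length. The Lpin2 window held an E-box (CACGTG, found in 6.02% of windows) that overlaps the core of a cAMP response element (TGACG, 17.8%), and a GC box (GGGCGG, 32.7%). The Agpat2 window held 2 overlapping GC boxes, and the Agpat3 window held none of the 6 motifs. The full cAMP response element (TGACGTCA, 1.55%) and the CCAAT box (CCAAT, 33.8%) matched none of the 4 windows. Such matches are letters in a sequence and were not tested as binding sites.

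Ube4a itself, on chromosome 9 of the table's C57BL/6NJ coordinates, had 23.2 to 34.0 CPM (counts scaled to library size, with TMM factors) in LKO livers, against 120 to 152 CPM in flox livers, so every library had the level its label gives. In LKO livers it fell to 19.8% of the flox mean, a log2 fold change of LKO over flox of -2.33 with a standard error (SE) of 0.09 (adjusted p = 3.44e-09, edgeR quasi-likelihood test). Flox replicates 4 and 5 stood apart on the first principal component (35.8% of the variance), at 48.3 and 68.3 against -35.4 to 17.2 in the other 10 livers. All 8 neutrophil markers were above 0 in some library, and their summed level was 0.14 to 1.70 CPM in LKO livers, against 271 and 430 CPM in flox replicates 4 and 5 and 0.15 to 0.84 CPM in the other flox livers. The summed level of 7 macrophage markers was 56.4 to 169 CPM in LKO livers, against 358 and 508 CPM in that pair and 26.1 to 77.3 CPM in the other flox livers. Endothelial (7 of 7 detected) and stellate cell markers (7 of 7) were also highest in the pair. Endothelial markers summed to 67.4 to 232 CPM in LKO livers, 258 and 348 CPM in the pair and 69.6 to 95.7 CPM in the other flox livers. Stellate cell markers summed to 128 to 230 CPM in LKO livers, 257 and 369 CPM in the pair and 87.1 to 171 CPM in the other flox livers. LKO replicate 1 had the highest LKO sum for both, close to flox replicate 4. Hepatocyte markers (7 of the 8 listed were in the table, all detected) summed to 95627 to 127194 CPM in LKO livers. Their sum was 97103 and 91516 CPM in flox replicates 4 and 5, below the 103231 to 121184 CPM of the other flox livers. Cholangiocyte markers (5 of 5) reached at most 62.2 CPM in LKO and 49.1 CPM in flox livers, and lymphocyte markers (7 of 7) at most 2.72 and 5.72 CPM. Erythroid markers (3 of 5 in the table) summed to 33.3 to 78.7 CPM in LKO and 27.3 to 64.7 CPM in flox livers. Adipocytes use the same enzymes, and of their 7 markers Lep and Retn were at 0 in every library, while Adipoq and Plin1 stayed at or below 0.246 CPM. The 7 summed to 3.48 to 6.09 CPM in LKO and 2.67 to 11.1 CPM in flox livers. Most of that sum was Fabp4, at 3.09 to 5.85 CPM in LKO and 2.6 to 11 CPM in flox livers. Flox replicates 4 and 5 had the highest sums of the 12 livers, at 8.41 and 11.1 CPM. In bulk tissue, fewer cells of a type and less RNA per cell cannot be told apart.

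None of the 9 enzymes passed the threshold of 0.05 on the adjusted p between LKO and flox livers. Over all genes tested the share past it was 0.00793%, which is Ube4a alone, and 0% were higher in LKO. DESeq2 called 0.221% of the genes it tested and also 0 of the 9, with adjusted p from 0.42 to 0.991. At an unadjusted p under 0.05 in edgeR there were 2 of the 9, Agpat2 higher and Agpat3 lower in LKO livers, against 7.64% of all genes. With flox replicates 4 and 5 left out, as decided once they were seen to stand apart, 0 of the 9 were under 0.05 against 5.27% of all genes, and 0 of the 9 passed the adjusted threshold against 0.00781%. The groups overlapped in CPM for all 9, where 0.484% of all genes tested had groups that did not overlap. Of the 9 log2 fold changes, 4 were positive and 5 negative, with a median of -0.02, beside -0.0060 over all genes tested. The median was -0.08 without that pair.

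**Figure D1:**
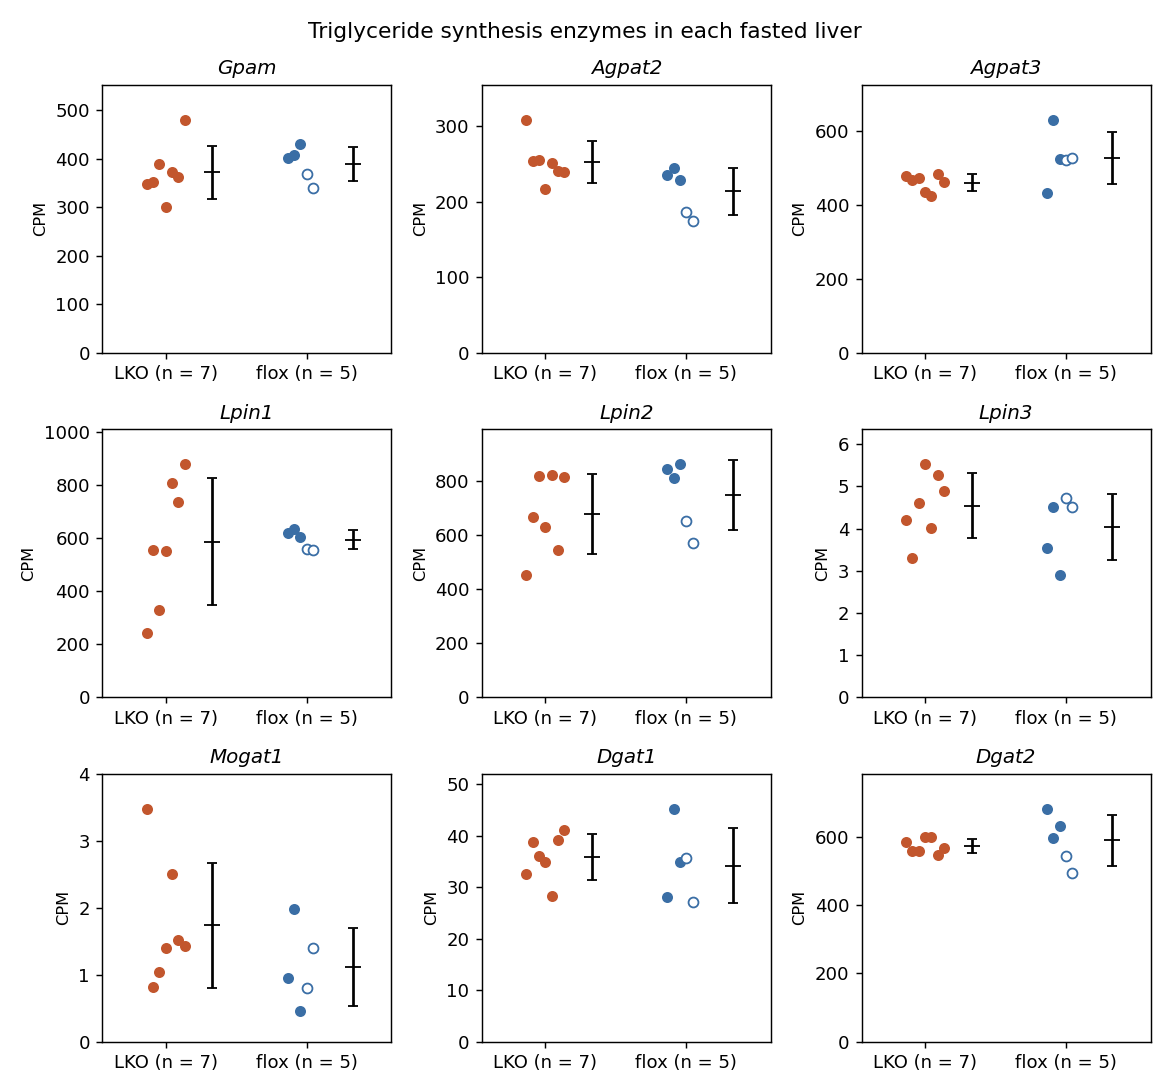
Level of each enzyme in CPM (y axis, from 0) in every LKO and flox liver (points), with the mean and SD beside them; open circles are flox replicates 4 and 5. Lpin1 in LKO livers runs from 242 to 878 CPM, while the flox livers lie between 554 and 634 CPM.

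**Figure D2:**
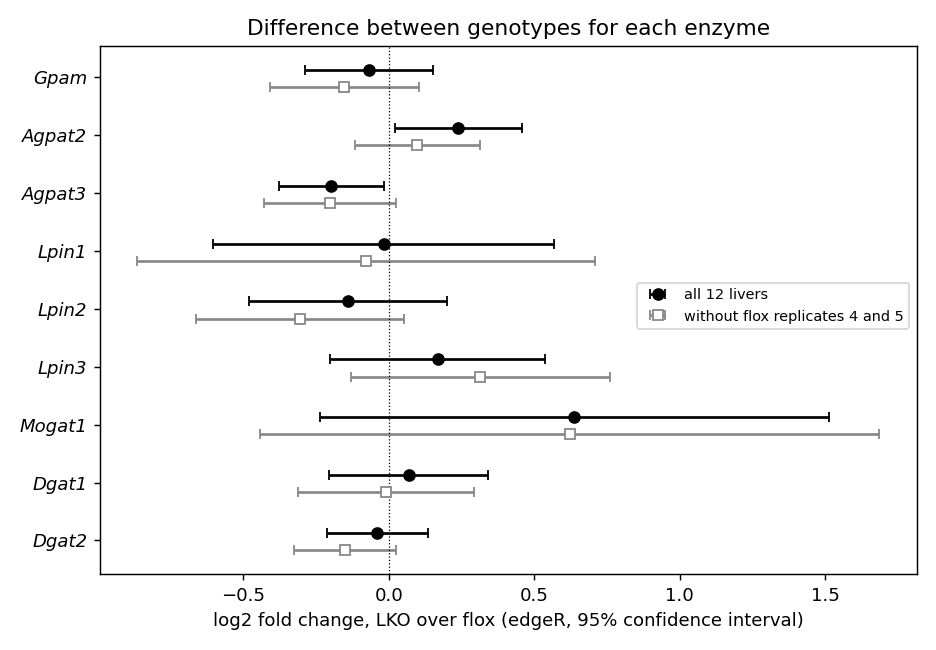
Log2 fold change of each enzyme, LKO over flox, with its 95% confidence interval from edgeR, with all 12 livers (filled circles) and without flox replicates 4 and 5 (open squares). With all livers the intervals of Agpat2 and Agpat3 lie to either side of 0, while those of the other 7 span it; without the pair all 9 span it.

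Compared per length, in FPKM as the authors deposited them, the enzymes of the pathway differed widely in level. Dgat2 was highest, at 254 ± 9.56 FPKM in LKO and 262 ± 32.4 FPKM in flox livers (SD, n = 7 and 5). Agpat2 (118 ± 12.9 in LKO and 101 ± 14.3 FPKM in flox) and Lpin1 (102 ± 41.8 and 104 ± 6.02 FPKM) followed and overlapped each other. Gpam (63.0 ± 9.41 FPKM in LKO and 66.3 ± 5.86 FPKM in flox), Agpat3 (60.4 ± 2.90 and 69.5 ± 9.06 FPKM) and Lpin2 (55.3 ± 12.02 and 61.1 ± 10.4 FPKM) lay close together, within each other's spread. Dgat1 was far below Dgat2, at 11.7 ± 1.44 FPKM in LKO and 11.2 ± 2.34 FPKM in flox livers. Lpin3 (1.23 ± 0.21 and 1.09 ± 0.21 FPKM) and Mogat1 (1.11 ± 0.60 and 0.72 ± 0.37 FPKM) were lowest and overlapped.

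Gpam encodes the mitochondrial glycerol 3-phosphate acyltransferase GPAT1, which commits fatty acids to glycerolipid synthesis. The gene (MGP_C57BL6NJ_G0025668, chromosome 19 at 56678023 to 56715762 (minus strand), in the C57BL/6NJ coordinates of the table) had 299 CPM in the lowest, 361 CPM in the median and 480.0 CPM in the highest LKO liver, against 401, 408, 430, 368 and 340.0 CPM in flox replicates 1 to 5. Both ends of the range over all 12 livers were LKO livers, replicates 4 and 7, and the groups overlapped. For Gpam edgeR gave a log2 fold change of -0.07 (SE 0.10, 95% confidence interval -0.29 to 0.15, adjusted p = 0.893 in edgeR), and -0.15 without flox replicates 4 and 5.

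Another glycerol 3-phosphate acyltransferase, Gpat4 of the endoplasmic reticulum, exceeded Gpam per length in both groups, at 107 FPKM in LKO and 91.1 FPKM in flox livers on average. Of the summed FPKM of the 4 genes Gpam, Gpat4, Gpat3 and Gpat2, Gpam took 33.2% to 39.0% in LKO livers (median 36.1%) and 38.7% to 41.2% in flox livers (median 40.4%). For Gpat4 the share was 57.1% to 63.2% in LKO livers and 54.4% to 56.6% in flox livers. The groups did not overlap for the Gpat4 share, which was picked after its value had been seen. How often such shares fail to overlap over all genes was not measured. These shares were not tested. Gpat4 alone measured 424 ± 78.1 CPM in LKO and 359 ± 36.6 CPM in flox livers (log2 fold change 0.24, SE 0.12, adjusted p = 0.662 in edgeR, and 0.15 without flox replicates 4 and 5) and overlapped between the groups.

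Agpat2, the acylglycerol phosphate acyltransferase whose human gene is mutated in congenital lipodystrophy, lies on chromosome 2 at 25353499 to 25364757 (minus strand). It had 217 CPM in the lowest, 252 CPM in the median and 309 CPM in the highest LKO liver, against 236, 244, 229, 187 and 175 CPM in flox replicates 1 to 5. Of 7 LKO livers 4 lay above every flox liver, and the lowest levels were those of flox replicates 4 and 5, the livers with the highest neutrophil and macrophage marker sums. Their part in the difference was not tested. The highest Agpat2 level was in LKO replicate 1, which also had the highest macrophage marker sum among LKO livers, 169 CPM. For Agpat2 edgeR gave a log2 fold change of 0.24 (SE 0.10, 95% confidence interval 0.02 to 0.46), unadjusted p = 0.034 by edgeR and adjusted p = 0.64. It was 0.10 (95% confidence interval -0.12 to 0.31) without flox replicates 4 and 5. The two-sided exact permutation p over all 792 splits of the livers, unadjusted, was 0.0379.

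Agpat3 encodes an acyltransferase that uses polyunsaturated acyl-CoA and lies on chromosome 10 at 81486355 to 81573258 (minus strand). LKO livers had 422, 468 and 481 CPM as the lowest, median and highest value, against 431, 629, 524, 521 and 527 CPM in flox replicates 1 to 5. All LKO livers lay below flox replicates 2 to 5, and flox replicate 1 lay among them. LKO livers were close together, with an SD of 0.07 on the log2 scale against 0.19 in flox livers, where the median gene of at least 10 CPM had 0.17 in LKO and 0.16 in flox livers. For Agpat3 edgeR gave a log2 fold change of -0.20 (SE 0.08, 95% confidence interval -0.38 to -0.02), unadjusted p = 0.0343 by edgeR and adjusted p = 0.64. It remained at -0.20 without flox replicates 4 and 5 (95% confidence interval -0.43 to 0.03). With single livers left out the Agpat3 value ran from -0.27 without flox replicate 1 to -0.14 without flox replicate 2. The two-sided exact permutation p, unadjusted, was 0.0316.

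Within each library, the ratio of Agpat2 to Agpat3 in FPKM does not depend on the scaling between libraries. It was 1.78 to 2.30 in LKO livers (median 1.93) and 1.18 to 1.94 in flox livers (median 1.38). Flox replicate 1, at 1.94, was the only flox liver within the LKO range, and the other 4 flox livers lay below every LKO liver. The mean log2 ratio was higher by 0.43 in LKO livers, and by 0.28 without flox replicates 4 and 5. The ratio was described after both genes had been seen and has no test.

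**Figure D3:**
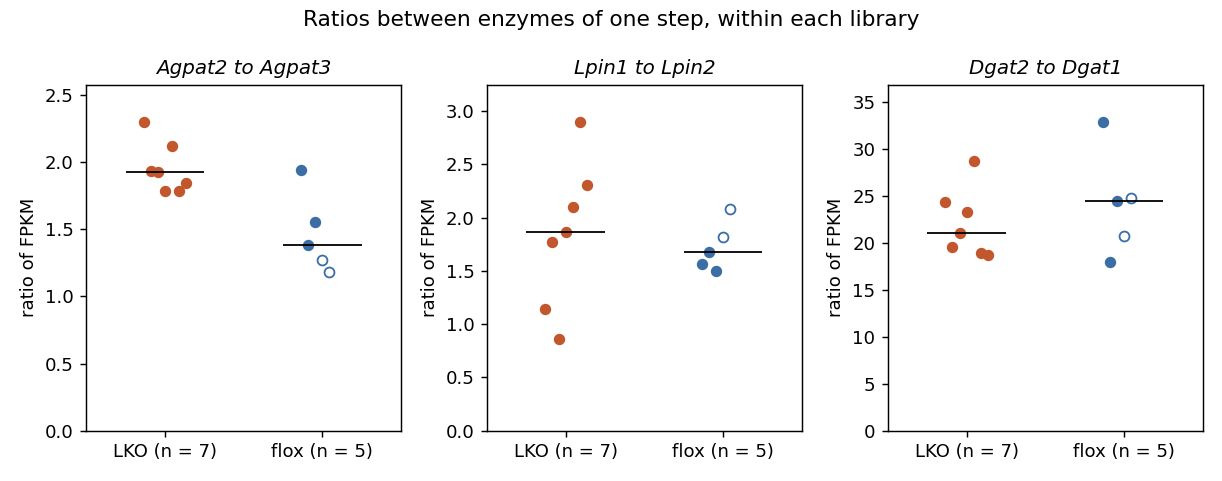
Ratio of FPKM between enzymes of one step in each library (y axes, from 0): Agpat2 to Agpat3, Lpin1 to Lpin2 and Dgat2 to Dgat1; lines are medians and open circles are flox replicates 4 and 5. Agpat2 to Agpat3 lies between 1.78 and 2.30 in LKO and between 1.18 and 1.94 in flox livers, and Lpin1 to Lpin2 is spread more widely in LKO than in flox livers.

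Lpin1, the fasting-induced phosphatidic acid phosphatase, lies on chromosome 12 at 14392201 to 14446077 (minus strand). It spread widely among LKO livers, with 242, 555, 330, 552, 808, 737 and 878 CPM in LKO replicates 1 to 7, against 617, 634, 604, 557 and 554 CPM in flox replicates 1 to 5. LKO replicates 5, 6 and 7 lay above every flox liver, replicates 1, 3 and 4 below every flox liver, and replicate 2 was the only LKO liver within the flox range. Replicate 4, at 552 CPM, was just outside it. Group means were 586 ± 239 CPM in LKO and 593 ± 36.2 CPM in flox livers, and edgeR gave a log2 fold change of -0.02 (SE 0.27, adjusted p = 0.991 in edgeR). Its 95% confidence interval ran from -0.60 to 0.57, so a change of that size in either direction could not be told from none. The sign depended on single livers: it was 0.11 without LKO replicate 1 and 0.08 without LKO replicate 3.

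The highest Lpin1 level among LKO livers was 3.62 times the lowest, while in flox livers that ratio was 1.14. The SD on the log2 scale was 0.69 in LKO livers and 0.09 in flox livers. Among 7525 tested genes of at least 10 CPM, 1.24% had an SD in LKO livers at least as large as that of Lpin1. Over all 12615 genes tested that share was 6.67%. At least 3 LKO livers above and at least 3 below every flox liver were found for Lpin1 and for 0.595% of all genes tested. The spread and this pattern of at least 3 above and 3 below were taken from the Lpin1 values themselves and have no test. On 3758 to 12921 counts per library, counting error is small beside the spread. LKO replicates 1 and 7 had the lowest and the highest level of both Lpin1 and Ube4a (23.2 and 34.0 CPM of Ube4a), while the other 5 had another order, with 25.20 and 25.05 CPM of Ube4a in replicates 5 and 6 and 26.1 and 25.9 CPM in replicates 3 and 4. Whether Ube4a levels bear on the spread of Lpin1 was not tested.

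The genes whose log2 CPM was most like that of Lpin1 over the 12 livers were Fcho2, a clathrin-mediated endocytosis factor, and Hook1, an adaptor of microtubule motors. Pearson's r was 0.979 for Fcho2 and 0.947 for Hook1, and 0.982 and 0.958 over the 10 livers other than flox replicates 4 and 5. Without LKO replicates 1 and 3, the livers farthest from the Lpin1 median, r was 0.888 for Fcho2 and 0.797 for Hook1. Fcho2 had 23.5, 34.4, 26.7, 33.1, 37.2, 36.8 and 37.8 CPM in LKO replicates 1 to 7, against 31.3 to 33.8 CPM in flox livers. LKO replicates 1 and 3 were thus lowest for Fcho2 as for Lpin1, and replicates 5, 6 and 7 highest. Of 7176 other tested genes with a symbol and at least 10 CPM, 16 had an r of at least 0.9 in size with Lpin1. These genes were picked for their likeness over the same livers, which share libraries and scaling.

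**Figure D4:**
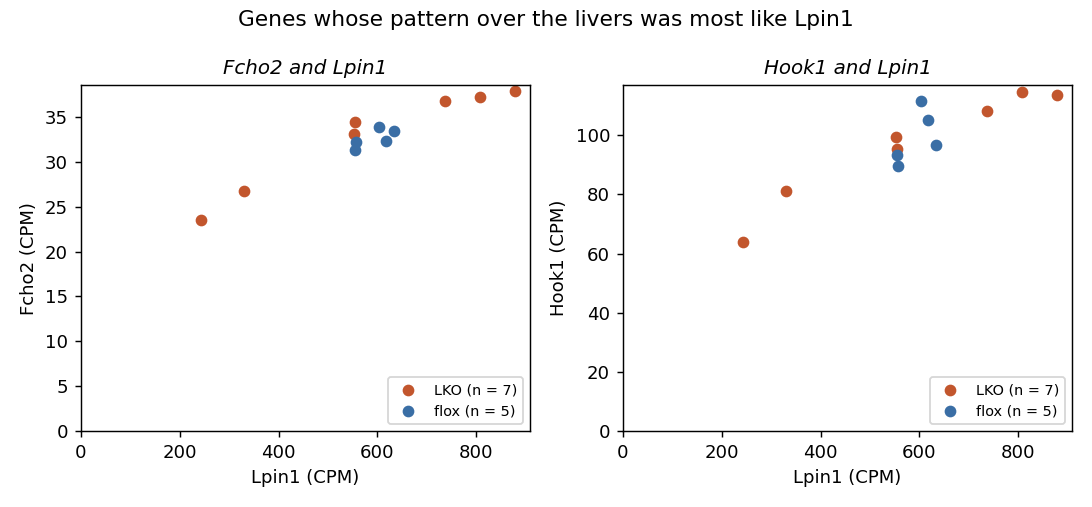
Level of Fcho2 (left) and Hook1 (right) in CPM against that of Lpin1 in CPM, 1 point for each of 7 LKO and 5 flox livers. LKO replicates 1 and 3, at 242 and 330 CPM of Lpin1, have the lowest level of both genes, and the flox livers sit in the middle.

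Lpin2, the lipin whose human gene is mutated in Majeed syndrome, lies on chromosome 17 at 76299546 to 76371339 (plus strand). LKO livers had 453, 668 and 822 CPM as the lowest, median and highest value, against 844, 809.9, 862, 654 and 569.7 CPM in flox replicates 1 to 5. No LKO liver reached above the flox range, LKO replicates 1 and 6 (453 and 544 CPM) lay below it, and flox replicates 4 and 5 were the lowest flox livers. For Lpin2 edgeR gave a log2 fold change of -0.14 (SE 0.16, 95% confidence interval -0.48 to 0.20, adjusted p = 0.856 in edgeR) and -0.31 without flox replicates 4 and 5 (95% confidence interval -0.66 to 0.05). LKO replicate 1 was the lowest of all 12 livers for both Lpin1 and Lpin2. Replicate 6 was high for Lpin1 and low for Lpin2, and replicate 3 the reverse.

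Of the summed lipin FPKM, Lpin1 took 45.8% to 73.7% in LKO livers (median 64.5%) and 59.7% to 67.0% in flox livers (median 62.2%). The ratio of Lpin1 to Lpin2 was 0.86 to 2.90 in LKO livers and 1.498 to 2.08 in flox livers. LKO replicate 3, at 0.86, was the only liver in which Lpin2 exceeded Lpin1 per length. Lpin3, the lipin of low abundance in liver, on chromosome 2 at 170996277 to 171021391, took at most 1.41% of the lipin FPKM. Lpin3 had 3.31, 4.597 and 5.52 CPM as the lowest, median and highest value in LKO livers, against 3.53, 4.52, 2.90, 4.73 and 4.51 CPM in flox replicates 1 to 5. The groups overlapped (log2 fold change 0.17, SE 0.17, adjusted p = 0.835 in edgeR, and 0.31 without flox replicates 4 and 5), on 38 to 83 counts per library.

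**Figure D5:**
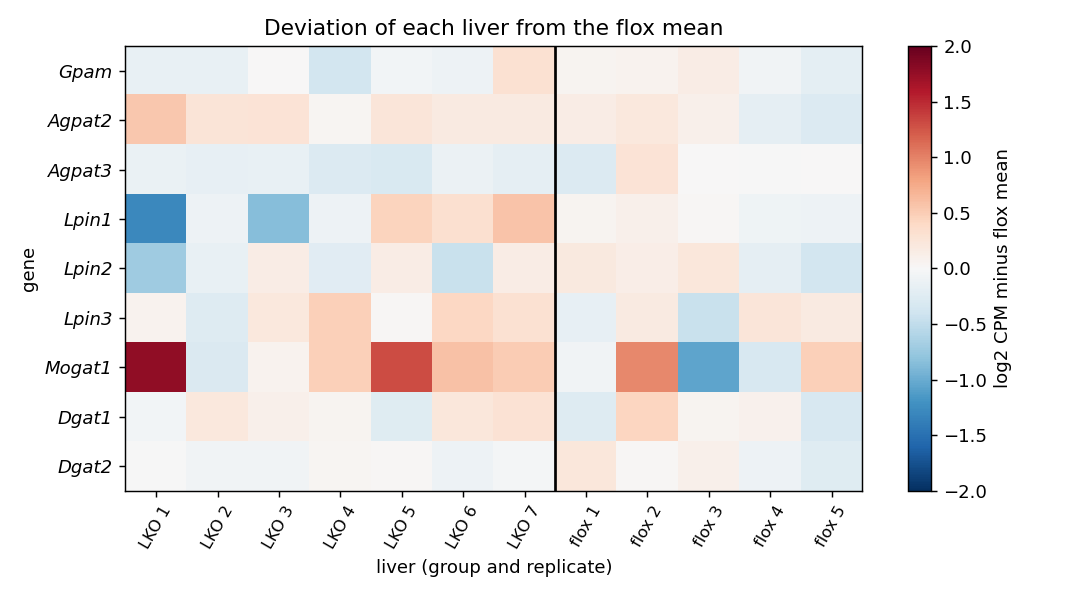
Deviation of each liver (columns, LKO left of flox) from the flox mean in log2 CPM (colour) for the 9 enzymes (rows). Lpin1 is lowest in LKO replicates 1 and 3 and high in replicates 5 to 7, LKO replicate 1 has the lowest Lpin2 and the highest Agpat2 and Mogat1, and Dgat2 is pale in every LKO liver.

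Mogat1, a monoacylglycerol acyltransferase, lies on chromosome 1 at 82287887 to 82319228 (plus strand). It was scarce, with 12 to 54 counts in LKO and 6 to 28 counts in flox libraries. Mogat1 had 0.81, 1.43 and 3.48 CPM as the lowest, median and highest value in LKO livers, against 0.96, 1.98, 0.46, 0.80 and 1.40 CPM in flox replicates 1 to 5. LKO replicates 1 and 5, at 3.48 and 2.51 CPM, lay above every flox liver and the other 5 LKO livers lay within the flox range. For Mogat1 edgeR gave a log2 fold change of 0.64, with an SE of 0.41 and a 95% confidence interval from -0.24 to 1.51 (adjusted p = 0.719 in edgeR). It was 0.37 without LKO replicate 1 and 0.92 without flox replicate 2, the lowest and highest values with a single liver left out.

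Dgat1 and Dgat2 carry out the same last step but are unrelated in sequence; Dgat1 is a membrane-bound O-acyltransferase and Dgat2 belongs to the family of Mogat1. Dgat2 (chromosome 7 at 105847849 to 105876501 (minus strand)) had 546, 567.8 and 600.2 CPM as the lowest, median and highest value in LKO livers, against 682, 597, 631, 544 and 493 CPM in flox replicates 1 to 5. All LKO livers lay inside the flox range, with an SD of 0.05 on the log2 scale in LKO and 0.18 in flox livers. For Dgat2 edgeR gave a log2 fold change of -0.04 (SE 0.08, 95% confidence interval -0.21 to 0.13, adjusted p = 0.93 in edgeR), the narrowest interval of the 9 enzymes. It was -0.15 without flox replicates 4 and 5 (95% confidence interval -0.33 to 0.02) and 0.014 without flox replicate 1.

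Dgat1 (chromosome 15 at 79444169 to 79454032 (minus strand)) had 28.3, 36.0 and 41.1 CPM as the lowest, median and highest value in LKO livers, against 28.1, 45.2, 35.0, 35.6 and 27.0 CPM in flox replicates 1 to 5. All LKO livers again lay inside the flox range. For Dgat1 edgeR gave a log2 fold change of 0.07 (SE 0.13, 95% confidence interval -0.20 to 0.34, adjusted p = 0.914 in edgeR), and -0.013 without flox replicate 5. Dgat2 took 94.9% to 96.6% of the summed FPKM of both genes in LKO livers and 94.7% to 97.0% in flox livers. The ratio of Dgat2 to Dgat1 was 18.7 to 28.7 in LKO livers and 17.9 to 32.9 in flox livers.

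For the other enzymes, Pearson's r over the 12 livers picked out 2 genes each as most alike, with r over the 10 livers other than flox replicates 4 and 5 beside it. Gpam was most like Ube2d3, a ubiquitin-conjugating enzyme (0.925, and 0.944 over 10 livers), and Ccdc47 (0.887 and 0.891). Agpat2 was most like the peroxisomal proteases Tysnd1 (0.928 and 0.80) and Lonp2 (0.924 and 0.818), and Agpat3 most like Tspan31 (0.916 and 0.909) and Os9, a lectin of endoplasmic reticulum quality control (0.905 and 0.896). Lpin2 was most like the transcription elongation factor Ell2 (0.934 and 0.944) and Tatdn2 (0.913 and 0.903), and Lpin3 most like the exocyst subunit Exoc6 (0.827 and 0.821) and the decapping enzyme Dcp2 (0.796 and 0.862). Mogat1 was most like Acat1, a mitochondrial enzyme of ketone metabolism (0.897 and 0.95), and BC026585 (0.88 and 0.888). Dgat1 was most like Fam193b (0.874 and 0.846) and the proteasome subunit Psmc3 (0.872 and 0.889), and Dgat2 most like the mitochondrial disaggregase Clpb (0.891 and 0.803) and Map1lc3a, an autophagy protein (0.879 and 0.767). Without the 2 livers farthest from each enzyme's median, r ran from 0.552 (Lpin3 with Dcp2) to 0.941 (Lpin2 with Ell2), and was 0.62 for Dgat2 with Map1lc3a. These genes too were picked for the highest r over the same livers.

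Genes around the pathway were read from 6 lists, and 0 of their tested members passed the threshold in either direction, against 0.00793% of all genes. Of the 3 genes of glycerol 3-phosphate supply, Gpd1, glycerol 3-phosphate dehydrogenase, measured 431 ± 36.2 CPM in LKO and 379 ± 78.0 CPM in flox livers, and glycerol kinase (Gk) 273 ± 44.8 and 303 ± 23.2 CPM. Their log2 fold changes were 0.19 and -0.15, and that of Gpd1 was 0.02 without flox replicates 4 and 5. Of the 8 other acyltransferases 7 were tested, with a median log2 fold change of -0.17, and of 0.05 without flox replicates 4 and 5. Agpat1 measured 9.79 ± 1.45 CPM in LKO and 11.04 ± 0.75 CPM in flox livers, beside Gpat4 above.

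Among 21 genes of the phospholipid branches, which draw on phosphatidic acid and diacylglycerol, 17 were tested (10 positive, 7 negative, median 0.05, and 0.02 without flox replicates 4 and 5). The phosphatidylinositol synthase gene Cdipt measured 46.3 ± 2.52 CPM in LKO and 50.8 ± 3.75 CPM in flox livers, and the cardiolipin synthase gene Crls1 93.7 ± 12.6 and 82.5 ± 13.1 CPM. Of 9 diacylglycerol kinases, which return diacylglycerol to phosphatidic acid, 5 were tested with a median of -0.11, and of -0.08 without that pair. Dgkz measured 46.7 ± 3.03 and 50.3 ± 6.54 CPM, and Dgke 2.39 ± 0.41 and 2.88 ± 1.06 CPM, in LKO and flox livers.

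Of 8 genes of triglyceride and glycerolipid hydrolysis 7 were tested, 1 positive and 6 negative, with a median of -0.04, and of -0.14 without flox replicates 4 and 5. Lipe, hormone-sensitive lipase, measured 15.1 ± 1.58 CPM in LKO and 18.2 ± 2.32 CPM in flox livers (log2 fold change -0.27, unadjusted p of 0.0169, adjusted p = 0.625 in edgeR), and -0.14 without flox replicates 4 and 5. Pnpla2, adipose triglyceride lipase, measured 225 ± 57.3 and 247 ± 33.4 CPM. All 14 regulators were tested, 8 positive and 6 negative, with a median of 0.02, and of -0.0069 without that pair. The glucocorticoid receptor gene Nr3c1 measured 95.6 ± 4.5999 CPM in LKO and 87.3 ± 9.87 CPM in flox livers (log2 fold change 0.13, and 0.04 without the pair), and Ppara 264 ± 24.9 and 287 ± 33.3 CPM. Ctdnep1, the catalytic subunit of the phosphatase that activates lipins, measured 30.9 ± 1.94 CPM in LKO and 30.4 ± 3.09 CPM in flox livers (log2 fold change 0.03). Ppargc1a, which drives Lpin1 in fasting, measured 19.9 ± 8.64 and 21.6 ± 6.72 CPM.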

How the data were processed

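Per the labels' protocols, RNA was extracted using TRIzol and libraries came from the NEBNext Ultra kit. The authors deposited whole-number counts per gene, used as deposited, and FPKM values, in which each count is divided by its gene's length and by a library-wide size. CASAVA 1.8, fastp, HISAT2 2.0.5, featureCounts 1.5.0-p3, DESeq2 1.20.0 and the build GRCm39 are named, per the submitters' processing notes. The table gives IDs and positions of the C57BL/6NJ annotation, and only promoter sequences use GRCm38.p6. The strand setting is not given in the sources used here. Whether reads from overlapping antisense genes were told apart is therefore not known. Of the listed symbols, Gpat3 was matched by its older symbol Agpat9. The table gave no name for 612 loci, and some others carry only their gene ID as a name.

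Groups came from the sample titles (7 LKO, 5 flox). The mice are listed separately with no litter, batch or sex. The p-values set the difference between groups against the spread between these livers. Libraries of a group all differed beyond counting noise (chi-square divided by degrees of freedom, 8.47 to 86.5). Genes were filtered with filterByExpr, scaled by TMM and compared by edgeR 4.0.16 (robust quasi-likelihood test, Benjamini-Hochberg adjustment over all genes tested, threshold 0.05) in R 4.3.3, tested on simulated data. Fold changes are LKO over flox. An exact permutation test over 792 splits was run on log2 CPM for each enzyme, and ran at 0.0316 to 0.681 over the 9, unadjusted. Correlations are of log2 CPM and have no test.

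The enzymes, the gene lists and the livers left out together were chosen with earlier results of these data known. The rule for genes named was Ube4a, all 9 enzymes, from each list the 2 tested genes of smallest p, and the 2 genes most like each enzyme. The Gpat4 share, Gpat3, Gpat2, Ctdnep1 and Ppargc1a were added after their values had been seen. Alternatives were other scaling, other filters, DESeq2 1.42.0, limma 3.58.1 (voom, and log2(FPKM + 0.1) or log2(FPKM + 1)), non-robust dispersion, a block for replicate number, 1 surrogate variable (sva 3.50.0) and each liver left out.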

Additional observations from a re-analysis of the deposited data

Results flagged for a closer look

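In 2 of the 20 sets of values examined (9 enzymes and Ube4a in each group), 1 liver lay far from the rest of its group. The rule was Dixon's, the gap to the next liver divided by the range, on CPM. Its cutoff gives about 1 in 20 by chance for independent sets of normal values. That was not checked here, and the sets share the same livers. Agpat2 in LKO replicate 1 was 309 CPM, with the next LKO liver at 256 CPM. Ube4a in LKO replicate 7 was 34.0 CPM, with the next LKO liver at 26.8 CPM, and both were far below the lowest flox liver at 120 CPM.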

How the results depend on the processing

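Across 25 alternatives, 0 of the 9 enzymes passed the threshold, with adjusted p of at least 0.27, and Ube4a passed in all of them (log2 fold change -2.41 to -2.03). Gpam, Agpat2, Agpat3, Lpin2, Lpin3 and Mogat1 kept their sign in all 25. Lpin1 ran from -0.15 to 0.11 when single livers were left out and was -0.38 with the replicate number as a block. Dgat1 ran from -0.013 to 0.18 when single livers were left out and was -0.0096 without flox replicates 4 and 5, an alternative chosen after seeing the data. Dgat2 ran from -0.10 to 0.014 when single livers were left out and was 0.0025 with voom and quality weights. The cause of these sign changes was not tested. Genes past the threshold numbered 1 in edgeR and 27 with DESeq2, and 1 to 2 when single livers were left out, with 2 without LKO replicate 7. Replicates numbered alike did not deviate together (r from -0.277 to 0.0966), so the numbers gave no sign of a pairing. Whether livers shared a litter or handling was not tested. With the replicate block, on replicates 1 to 5 of each group, 1 gene passed, and Agpat2 and Agpat3 were at 0.26 and -0.21. Depth limits Mogat1 and Lpin3, at 6 to 83 counts per library.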
